A study of Mus musculus with 9 samples.

Results

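The genes described here were Il11, the cytokines related to it, and the receptors and feedback inhibitor through which they act, measured by RNA-seq in cultured mouse heart fibroblasts. The members were the 10 rows of the deposited count table, of 38924 genes in all, whose Ensembl identifiers map to the mouse symbols Il11, Il6, Lif, Clcf1, Ctf1, Il11ra1, Il6st, Osmr, Lifr and Socs3. All 10 had enough reads to pass the filter on low counts in every comparison. The members were chosen by their place in the pathway around Il11 at a time when measured values of these libraries were known, and which values entered the choice is not recorded. Tests of the other members are therefore not independent of that choice, and Il11, at the centre of it, is described with its spread and without a test.

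The cells were primary adult cardiac fibroblasts from RosaCas9-EGFP mice on a C57BL/6 background, 8 to 10 weeks old. Every group, the control included, therefore carried the Cas9 nuclease and the green fluorescent protein inserted at the Rosa locus. Cells were grown for 3 days, sorted as CD45-CD31-CD90+, replated, and transfected 6 days later at 80 to 90% confluency. The groups were control (scrambled guide RNAs), Gata4 KD (2 guides to Gata4) and Tbx20 KD (2 guides to Tbx20), with 3 libraries each, named a, b and c. Guides were delivered to whole cultures by a lipid reagent, with no selection of edited cells stated and no clone isolated, so each library can hold edited and unedited cells. The labels do not say which mice gave which library, and the p-values measure the spread between these libraries only. Both knockdowns were compared with the same 3 control libraries.

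Cytokines of this family bind a receptor on the cell surface that then pairs with gp130, the shared signalling chain encoded by Il6st. IL-11 and IL-6 each use a binding receptor of their own (IL-11 receptor alpha and IL-6 receptor alpha). The signalling chains of LIF, CT-1 and CLCF1 are gp130 and the LIF receptor, and those of oncostatin M are gp130 and the oncostatin M receptor. The paired chains activate JAK kinases, STAT3 and the ERK pathway, and STAT3 induces SOCS3, which binds gp130 and dampens the signal. In the heart, IL-11 is known as a fibroblast cytokine induced by TGF-beta and linked to fibrosis.

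The libraries held 31214828 to 41950397 counts. CPM below is the count of a gene scaled to a common library size, with normalisation factors over all 9 libraries. The targeted transcription factors, both needed for heart development, were lower in their own knockdowns. Gata4 stood at 54.0, 46.7 and 65.5 CPM in Gata4 KD and at 166, 155 and 167 CPM in control. Tbx20 stood at 320, 426 and 428 CPM in Tbx20 KD and at 1010, 1276 and 720 CPM in control. The log2 difference was -1.55 for Gata4 (adjusted p = 0.00272) and -1.35 for Tbx20 (adjusted p = 0.748), which did not pass edgeR's adjustment over all genes although its groups did not overlap. All 9 fibroblast markers were above 1 CPM in at least 1 library (Lum only in some), with sums of 6937 to 10467 CPM over the libraries. The 8 leukocyte markers summed to 21.8 to 52.4 CPM, and 6 of them were above 1 CPM in at least 1 library. Lyz2 was the highest, at 9.91 to 26.2 CPM, and Ptprc, which encodes CD45, was at 1.62 to 3.14 CPM. Cd3e was at 0 in every library. Once group means were subtracted, the leading principal component held 33.7% of the remaining variance, with control b at one end (-34.6) and control c at the other (28.8).

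The sequences before the start of Il11 and Il6 are shown because Il11 is the gene around which the family was chosen and Il6 is the other member called below. RefSeq promoter windows on GRCm38.p6 matched 9 of the 10 members, with 12 starts, and the 250 bases before each start were searched on both strands. Clcf1 was not matched. The letters searched were TGANTCA, bound by AP-1; GATA preceded by A or T and followed by A or G, bound by GATA factors; TTCNNNGAA, bound by STATs; and AGGTGTGA, bound by T-box factors. The windows printed hold no annotated exon base of their gene, and capitals mark the matches. Among the windows not printed, all 250 bases of the Osmr window lay in annotated exons of the gene. So did 247 bases of 1 Il11ra1 window and 77 of the Socs3 window, and at most 13 in any other.
Il11, minus strand, chr7:4778142-4778391: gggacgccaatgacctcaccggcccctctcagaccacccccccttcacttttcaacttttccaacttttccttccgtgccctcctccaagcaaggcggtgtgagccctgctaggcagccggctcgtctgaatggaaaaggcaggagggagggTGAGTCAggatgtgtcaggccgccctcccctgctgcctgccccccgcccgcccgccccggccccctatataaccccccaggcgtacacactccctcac
Il6, plus strand, chr5:30012864-30013113: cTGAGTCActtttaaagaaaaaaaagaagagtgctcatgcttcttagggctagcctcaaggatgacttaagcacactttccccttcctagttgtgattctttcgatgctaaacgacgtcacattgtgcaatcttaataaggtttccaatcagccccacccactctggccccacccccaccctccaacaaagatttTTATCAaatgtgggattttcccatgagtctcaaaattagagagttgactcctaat

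Il11 carried the AP-1 letters TGAGTCA at bases -98 to -92 before this start, and Il6 carried them at bases -249 to -243. The Il6 window also held TTATCA, which reads TGATAA on the other strand, at bases -55 to -50. The other Il11 start, with a window at chr7:4782858-4783107, held none of the letters searched. Over the family, the AP-1 letters were found before 3 of 12 starts (Il11, Il6 and Lif), against 6.75% of all 32851 starts. The GATA letters were found before 2 of 12 starts (Il6 and Lifr), against 26.5% of all starts, and the T-box letters before none of the 12, against 1.12%. The STAT letters were found before Socs3 alone (TTCTTAGAA at bases -154 to -146), against 7.02% of all starts. A match describes letters in these windows and says nothing of binding in these cells.

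Among the ligands, Il11 and Il6 were those whose Gata4 KD libraries all lay above the other libraries. Il11 (ENSMUSG00000004371, GRCm38 chromosome 7, 4772373 to 4782859, minus strand) encodes the secreted cytokine IL-11. It was at 4.60, 2.44 and 4.64 CPM in control a, b and c, from 169, 87 and 154 reads. It was at 15.97, 17.3 and 9.27 CPM in Gata4 KD, from 507, 628 and 335 reads. It was at 3.05, 1.79 and 1.71 CPM in Tbx20 KD, from 129, 57 and 69 reads. Every Gata4 KD library lay above every control and every Tbx20 KD library, and the lowest Gata4 KD library was 2.00 times the highest control library. Control and Tbx20 KD overlapped, through Tbx20 KD a, which lay above control b. The means were 3.89 ± 1.26 CPM in control, 14.2 ± 4.30 CPM in Gata4 KD and 2.18 ± 0.753 CPM in Tbx20 KD (SD, n = 3 each).

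On the log2 scale, Il11 differed by 1.86 (SE 0.30) between Gata4 KD and control, a ratio of 3.64. It differed by -0.81 (SE 0.31) between Tbx20 KD and control, and by 2.68 (SE 0.31) between Gata4 KD and Tbx20 KD, a ratio of 6.43. These values are a description, since Il11 was the gene around which the family was chosen. Less RNA per cell and fewer expressing cells cannot be told apart in these cultures, for Il11 or for any gene below.

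**Figure D1:**
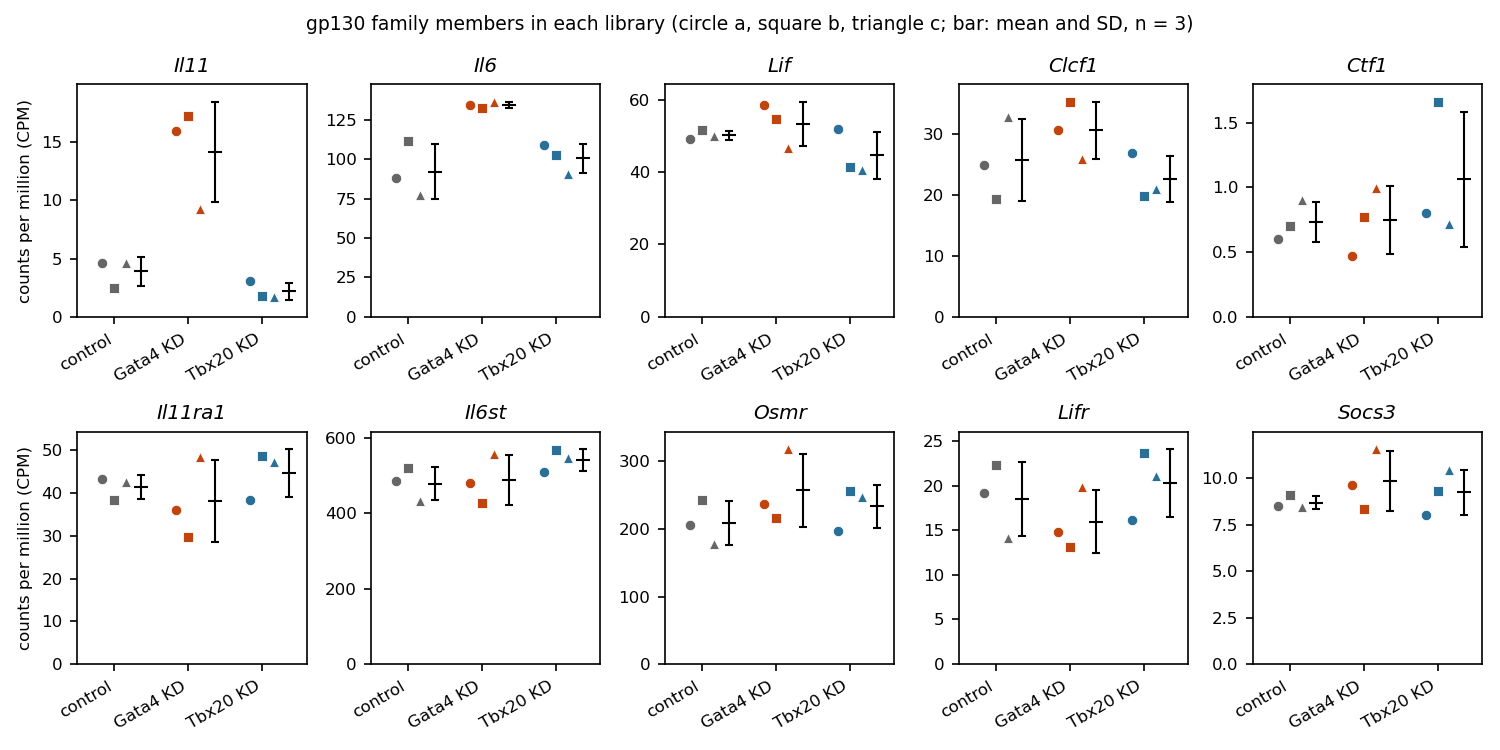
CPM of each of the 10 members (vertical axes, each starting at 0) in the 3 libraries of control, Gata4 KD and Tbx20 KD, with the group mean and SD beside the points. Il11 reaches 9.27 to 17.3 CPM in Gata4 KD and stays at or below 4.64 CPM elsewhere, and Il6 sits between 133 and 136 CPM in Gata4 KD and at or below 111 CPM elsewhere.

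Il6 (ENSMUSG00000025746, chromosome 5, 30013114 to 30019981, plus strand) encodes interleukin-6, the best known ligand of gp130. It was at 87.8, 111 and 77.5 CPM in control, at 134, 133 and 136 CPM in Gata4 KD, and at 109, 102 and 90.7 CPM in Tbx20 KD. The Gata4 KD libraries lay close together, above every other library, while control and Tbx20 KD overlapped. Il6 was higher in Gata4 KD than in Tbx20 KD by 0.42 on the log2 scale (SE 0.07, edgeR quasi-likelihood adjusted p = 0.0405), a ratio of 1.34. Against control the difference was larger, at 0.54, but with a wider error (SE 0.13), and it did not pass (adjusted p = 0.178). Between Tbx20 KD and control it was 0.14 (SE 0.14, adjusted p = 0.9997). The call between the knockdowns was lost when all 9 libraries shared one fit (adjusted p = 0.149), when libraries were scaled by size alone (0.0531), and without Gata4 KD a, Gata4 KD b, Tbx20 KD b or Tbx20 KD c (0.113 to 0.180). Against control Il6 passed without control b (adjusted p = 0.0134) and by DESeq2 (0.0111).

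The other ligands of the family were called in no comparison. Lif (chromosome 11, 4257557 to 4272514), encoding leukemia inhibitory factor, was at 49.0, 51.5 and 49.9 CPM in control, at 58.6, 54.7 and 46.5 CPM in Gata4 KD and at 52.0, 41.3 and 40.5 CPM in Tbx20 KD. All 3 groups overlapped, through Gata4 KD c and Tbx20 KD a. Clcf1 (chromosome 19, 4214238 to 4223490), encoding cardiotrophin-like cytokine factor 1, was at 25.0, 19.4 and 32.8 CPM in control, at 30.6, 35.3 and 25.9 CPM in Gata4 KD and at 26.9, 19.8 and 21.0 CPM in Tbx20 KD. Between Gata4 KD and Tbx20 KD, Clcf1 differed by 0.44 (SE 0.15, adjusted p = 0.195) and Lif by 0.26 (SE 0.12, adjusted p = 0.339), and neither passed. Ctf1 (chromosome 7, 127712736 to 127718192), encoding cardiotrophin-1, was near the limit of detection, with 15 to 53 reads and 0.473 to 1.66 CPM per library, and its largest log2 difference was 0.52 (SE 0.37, Tbx20 KD against control).

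The receptors were called in no comparison. Il11ra1 (chromosome 4, 41699989 to 41769474), the binding chain for IL-11, was at 43.3, 38.3 and 42.6 CPM in control, at 36.1, 29.6 and 48.5 CPM in Gata4 KD and at 38.3, 48.6 and 47.3 CPM in Tbx20 KD. The lowest and nearly the highest of these values both came from Gata4 KD libraries, and the log2 difference from control was -0.12 in Gata4 KD (SE 0.17, adjusted p = 0.891) and 0.12 in Tbx20 KD (SE 0.10, adjusted p = 0.9997). A share of 35.95% of the 75-base windows of Il11ra1 also occurs in another gene, chiefly Gm13305, so its counts depend on how reads were divided. Gm13305 held 5 reads over all libraries and the related Il11ra2 held 0.

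Il6st (chromosome 13, 112464070 to 112510086), encoding gp130, was the most counted member, at 484, 519 and 431 CPM in control, 480, 426 and 557 CPM in Gata4 KD and 509, 566 and 547 CPM in Tbx20 KD. Its log2 difference from control was 0.03 in Gata4 KD (SE 0.12) and 0.19 in Tbx20 KD (SE 0.09), with adjusted p = 0.969 and 0.9997. Osmr (chromosome 15, 6813577 to 6874969), encoding the oncostatin M receptor, was at 206, 243 and 177 CPM in control, 237, 216 and 319 CPM in Gata4 KD and 197, 257 and 247 CPM in Tbx20 KD. Gata4 KD c was the highest of the 9 libraries for Osmr, and its log2 difference between Gata4 KD and control was 0.30 (SE 0.16, adjusted p = 0.701). Lifr (chromosome 15, 7090614 to 7197489), encoding the LIF receptor, was at 19.2, 22.3 and 14.1 CPM in control, 14.8, 13.2 and 19.9 CPM in Gata4 KD and 16.2, 23.7 and 21.1 CPM in Tbx20 KD. Its log2 difference between Gata4 KD and Tbx20 KD was -0.35 (SE 0.19, adjusted p = 0.398), and the groups overlapped.

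Socs3 (chromosome 11, 117966079 to 117970047), the feedback inhibitor of gp130 and a usual early target of STAT3, was at 8.52, 9.07 and 8.47 CPM in control. It was at 9.64, 8.31 and 11.6 CPM in Gata4 KD and at 8.02, 9.28 and 10.4 CPM in Tbx20 KD. The groups overlapped, and the log2 difference from control was 0.18 in Gata4 KD (SE 0.14, adjusted p = 0.796) and 0.10 in Tbx20 KD (SE 0.12, adjusted p = 0.9997).

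Leaving Il11 aside, 0 of the 9 other members passed between Gata4 KD and control by edgeR, where 0.38% of 14468 genes tested passed. At an unadjusted p under 0.05 there was 1 (Il6), beside 8.54% of all genes, and DESeq2 and edgeR's exact test each called 1 (Il6). Between Tbx20 KD and control 0 of 9 passed, where 0.00687% of 14547 genes did. None had an unadjusted p under 0.05, beside 2.69% of all genes, and DESeq2 and the exact test also called 0. Between Gata4 KD and Tbx20 KD 1 of 9 passed, in the direction of higher in Gata4 KD, where 0.815% of 14477 genes were called higher and 0.622% lower. At an unadjusted p under 0.05 there were 2 (Il6 and Clcf1), beside 16.7% of all genes. The groups did not overlap for 1 of the 9 (Il6) between Gata4 KD and control, against 13.8% of genes tested, for 0 of 9 between Tbx20 KD and control, against 6.74%, and for 1 of 9 (Il6) between the knockdowns, against 23.0%. The median log2 difference of the 9 was 0.09 between Gata4 KD and control, 0.14 between Tbx20 KD and control and 0.09 between the knockdowns, beside medians over all genes tested of -0.02, -0.0022 and -0.0063.

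**Figure D2:**
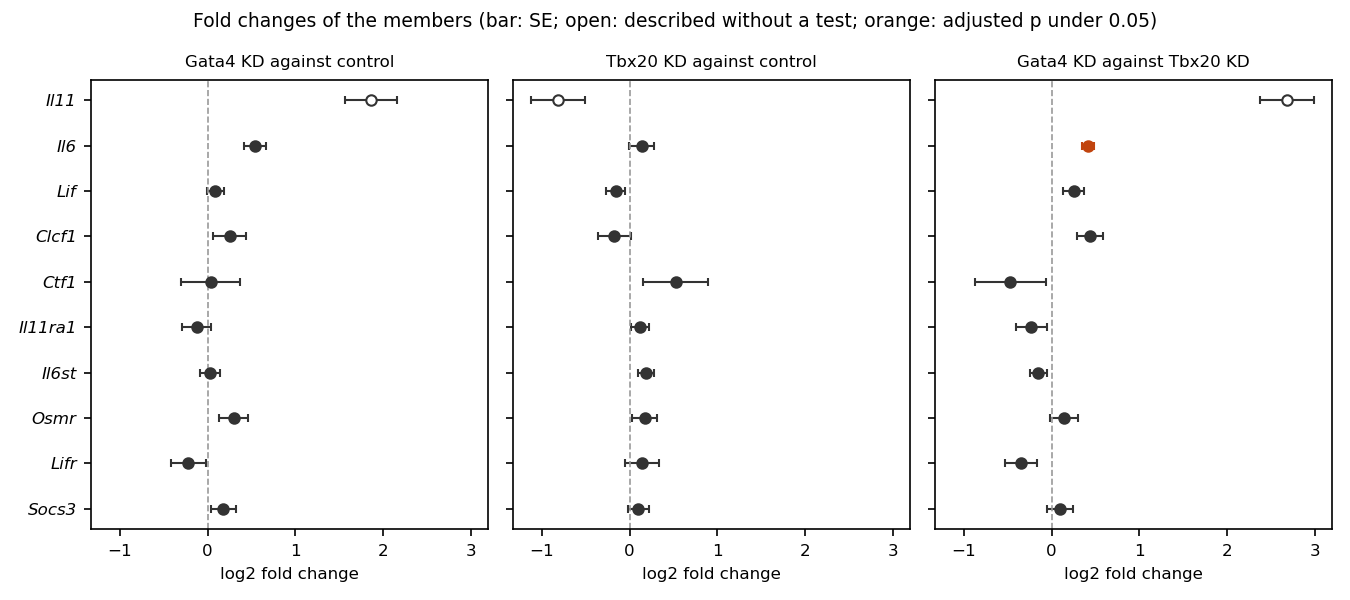
Log2 fold change of each member (horizontal axis) with its SE, for Gata4 KD against control, Tbx20 KD against control and Gata4 KD against Tbx20 KD. Open points mark Il11, which was not tested, at 1.86, -0.81 and 2.68, and the orange point marks Il6 between the knockdowns, at 0.42.

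Levels were compared between members only per kilobase, as CPM divided by the length of all annotated exons of the gene. In control the order by mean was Il6st (43.1 CPM per kilobase), Il6 (38.0), Osmr (17.2), Lif (11.5), Il11ra1 (9.26), Clcf1 (6.76), Socs3 (3.00), Il11 (1.87), Lifr (1.72) and Ctf1 (0.402). The control values overlapped for 3 pairs of neighbours, Il6st with Il6, Il11ra1 with Clcf1, and Il11 with Lifr, and did not overlap for the other 6 pairs. Per kilobase of all annotated exons, transcripts of gp130 and IL-6 were thus the most abundant of the family in control. Those of the IL-11 binding chain stood above those of IL-11 itself. The size of the gap between Il6 and Osmr depended on the length used. All annotated exons came to 12113 bases for Osmr and 2428 for Il6, and the longest transcripts to 5491 and 2343 bases. With the length of the longest transcript instead, Il11ra1 moved above Lif, and without control c, Lifr moved above Il11.

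Il11 changed place in this order between groups. It was eighth of 10 in control, seventh in Gata4 KD at 6.81 CPM per kilobase, where its values overlapped those of Clcf1 above it (8.04), and ninth in Tbx20 KD at 1.05, where they overlapped those of Ctf1 below it (0.582). Among all genes tested, its mean per kilobase stood at the 33.0th percentile in control, the 59.4th in Gata4 KD and the 25.7th in Tbx20 KD. Of the summed level per kilobase of the 5 ligands, Il11 made up 3.91%, 1.82% and 4.07% in control, 9.06%, 9.75% and 5.66% in Gata4 KD and 2.23%, 1.46% and 1.54% in Tbx20 KD. Il6 held the largest share of the ligands in all 9 libraries, from 58.3% to 71.9%.

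**Figure D3:**
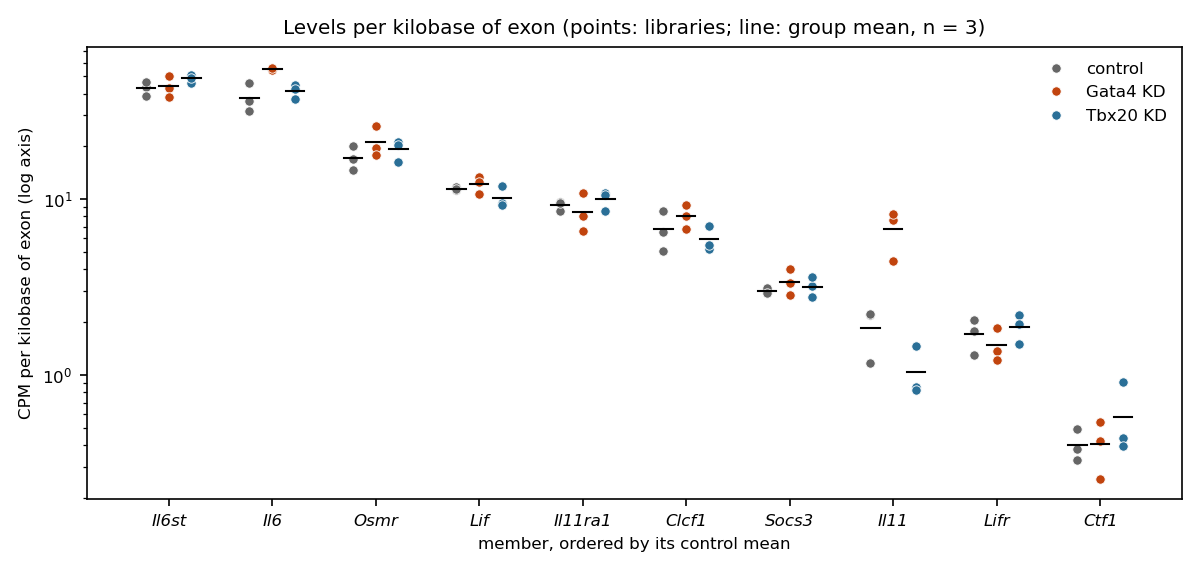
CPM per kilobase of exon (vertical log axis) for the 10 members, ordered by their control mean, in each library of the 3 groups. Il6st and Il6 lie highest, near 40 CPM per kilobase in control, Ctf1 lies lowest, and Il11 moves from 1.87 in control to 6.81 in Gata4 KD and 1.05 in Tbx20 KD.

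Several other ligands and receptors of the pathway were scarce. Of 7 other ligand genes 3 passed the filter. Cntf, encoding ciliary neurotrophic factor, was at 0.640 CPM in control, 0.640 in Gata4 KD and 0.690 in Tbx20 KD. Osm, the ligand of the abundant Osmr, did not pass the filter and reached at most 0.0496 CPM. Of 5 other receptor genes 3 passed the filter. Il6ra, the binding chain for IL-6, was at 8.93 ± 0.620, 9.08 ± 0.394 and 8.79 ± 0.0728 CPM in control, Gata4 KD and Tbx20 KD. Il27ra, the binding chain for IL-27, was at 4.62 ± 0.177, 3.35 ± 0.927 and 5.53 ± 0.997 CPM. None of these genes was called in any comparison.

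Downstream of the receptors, the JAK kinases, STATs and adaptors were all expressed, and 0 of 11 were called in any comparison by edgeR, DESeq2 or the exact test. With a library covariate 1 (Jak2) was called in both comparisons of Gata4 KD. Ptpn11, the phosphatase SHP2 that links gp130 to ERK, was at 386 ± 13.5 CPM in control, 394 ± 4.94 in Gata4 KD and 381 ± 11.2 in Tbx20 KD (SD, n = 3). Of the 7 other inhibitors 0 were called. Socs2, of the same family as Socs3, spanned 38.4 to 57.7 CPM in control, 44.8 to 67.6 in Gata4 KD and 47.2 to 63.5 in Tbx20 KD. Ptpn1, a phosphatase that acts on JAKs, was at 49.0 ± 3.14, 56.5 ± 4.25 and 49.4 ± 2.18.

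Of 17 STAT3 target genes 13 were tested and 0 were called in any comparison, with median log2 differences of -0.12 (Gata4 KD against control), -0.03 (Tbx20 KD against control) and -0.04 (Gata4 KD against Tbx20 KD). Timp1, an inhibitor of matrix metalloproteinases, was at 712 ± 57.6, 716 ± 138 and 737 ± 120 CPM in control, Gata4 KD and Tbx20 KD. Ccl2, a monocyte chemokine, was at 285 ± 3.70, 249 ± 16.9 and 258 ± 28.3 CPM. Of 12 ERK response genes 0 were called, with medians of 0.09, -0.07 and 0.15 in the same order of comparisons. Between Gata4 KD and control 4 had an unadjusted edgeR p under 0.05 (Etv5, Phlda1 and Dusp6 higher, Spry2 lower), beside 8.54% of all genes. There were 0 between Tbx20 KD and control, beside 2.69%, and 1 between the knockdowns, beside 16.7%. DESeq2 and the exact test called 0 of the 12. Spred1, an inhibitor of the RAS to ERK pathway, was at 154 ± 46.1, 178 ± 11.2 and 162 ± 3.29 CPM, and Dusp4, a phosphatase of ERK, at 141 ± 5.06, 136 ± 22.7 and 126 ± 22.1.

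Fosl2, an AP-1 subunit, and Tgfbr1, the type I receptor for TGF-beta, were the pathway genes that passed, both higher in Gata4 KD than in Tbx20 KD. Fosl2 was at 221, 243 and 229 CPM in control, 317, 330 and 284 CPM in Gata4 KD and 231, 206 and 216 CPM in Tbx20 KD. Every Gata4 KD library lay above every other library. Its log2 difference was 0.51 between the knockdowns (SE 0.07, adjusted p = 0.0242) and 0.42 between Gata4 KD and control (adjusted p = 0.122), and DESeq2 called both (2.04e-07 and 0.00247). Without Gata4 KD a or b, or Tbx20 KD b or c, the call between the knockdowns was lost, with adjusted p of 0.0821 to 0.142.

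Tgfbr1 was at 54.6, 73.9 and 41.1 CPM in control, 63.0, 68.6 and 65.9 CPM in Gata4 KD and 53.6, 54.3 and 52.6 CPM in Tbx20 KD. The knockdown groups did not overlap each other, but the control libraries spanned both. Its log2 difference was 0.30 between the knockdowns (SE 0.05, adjusted p = 0.0405) and 0.22 between Gata4 KD and control (adjusted p = 0.819). The call was lost when all 9 libraries shared one fit (adjusted p = 0.520), when libraries were scaled by size alone (0.0747), with a library covariate (0.146), and without any one of 5 of the 6 libraries, Gata4 KD c excepted (0.0960 to 0.214). Between the knockdowns 1 of 7 AP-1 subunits was called higher and 0 lower (median log2 difference 0.19), and 1 of 10 TGF-beta ligands, receptors and SMADs was called higher and 0 lower (median 0.09). In the comparisons with control neither list had a gene called by the edgeR quasi-likelihood test.

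Over the 8 pathway lists, 66 of 76 genes were tested. Between Gata4 KD and control 0 were called by edgeR, beside 0.38% of all genes tested, 8 had an unadjusted p under 0.05, beside 8.54%, and DESeq2 and the exact test each called 1 (Fosl2 by DESeq2). Between Tbx20 KD and control 0 were called, beside 0.00687% of all genes tested, 0 had an unadjusted p under 0.05, beside 2.69%, and DESeq2 and the exact test called 0. Between the knockdowns 2 were called, beside 1.44% of all genes tested, 10 had an unadjusted p under 0.05, beside 16.7%, and DESeq2 and the exact test each called 2.

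**Figure D4:**
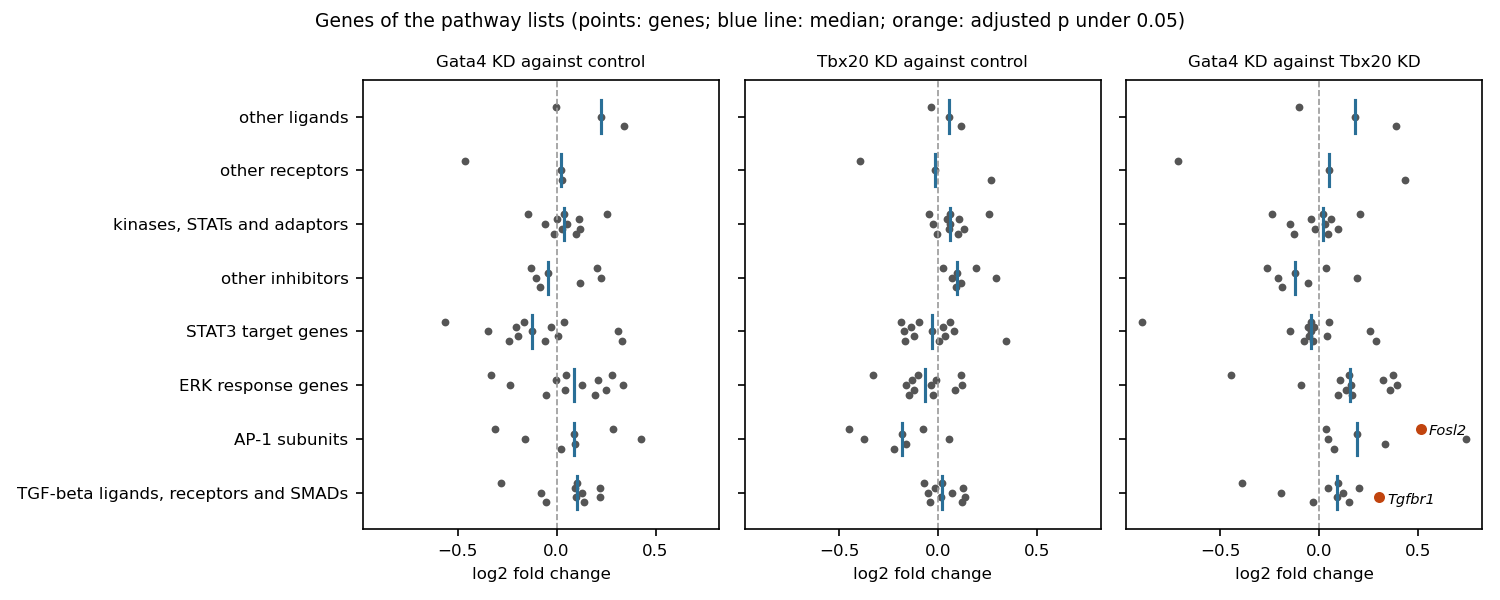
Log2 fold changes (horizontal axis) of the tested genes of 8 pathway lists (rows) in the 3 comparisons, with each list's median as a blue line. The orange points mark genes past an adjusted p of 0.05, which were Fosl2 (0.51) and Tgfbr1 (0.30), both between Gata4 KD and Tbx20 KD.

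The genes whose levels followed Il11 most closely were found by the Pearson correlation of log2 CPM over the 9 libraries, among 10032 genes with a mean of at least 5 CPM. The points share libraries and their groups, and r after subtracting the group means is given beside each. The 5 most alike were Ptgs1 (0.99, and 0.96 within groups), Ern1 (0.99 and 0.91), Fez2 (0.98 and 0.97), Vegfa (0.97 and 0.85) and Slc25a25 (0.97 and 0.81). Ptgs1, encoding the prostaglandin synthase COX-1, was at 112, 79.6 and 122 CPM in control, 301, 354 and 215 CPM in Gata4 KD and 93.0, 69.4 and 74.2 CPM in Tbx20 KD. Like Il11, it was lowest in library b of control and in library c of Gata4 KD. In Tbx20 KD it was lowest in library b, whereas Il11 was lowest in library c. Vegfa, the vascular endothelial growth factor, spanned 144 to 166 CPM in control, 174 to 183 in Gata4 KD and 132 to 145 in Tbx20 KD.

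The 5 genes most unlike Il11 were Peg10 (-0.98, and -0.89 within groups), Dact1 (-0.98 and -0.90), Gcnt1 (-0.98 and -0.78), Cpped1 (-0.98 and -0.93) and Ptger4 (-0.97 and -0.93). Peg10, an imprinted gene derived from a retrotransposon, was at 184, 202 and 154 CPM in control, 89.2, 91.8 and 121 CPM in Gata4 KD and 180, 236 and 217 CPM in Tbx20 KD. Ptger4, a receptor for prostaglandin E2, spanned 37.4 to 41.8 CPM in control, 29.0 to 35.6 in Gata4 KD and 39.1 to 42.8 in Tbx20 KD. These genes were chosen for their pattern, so their levels are a description.

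**Figure D5:**
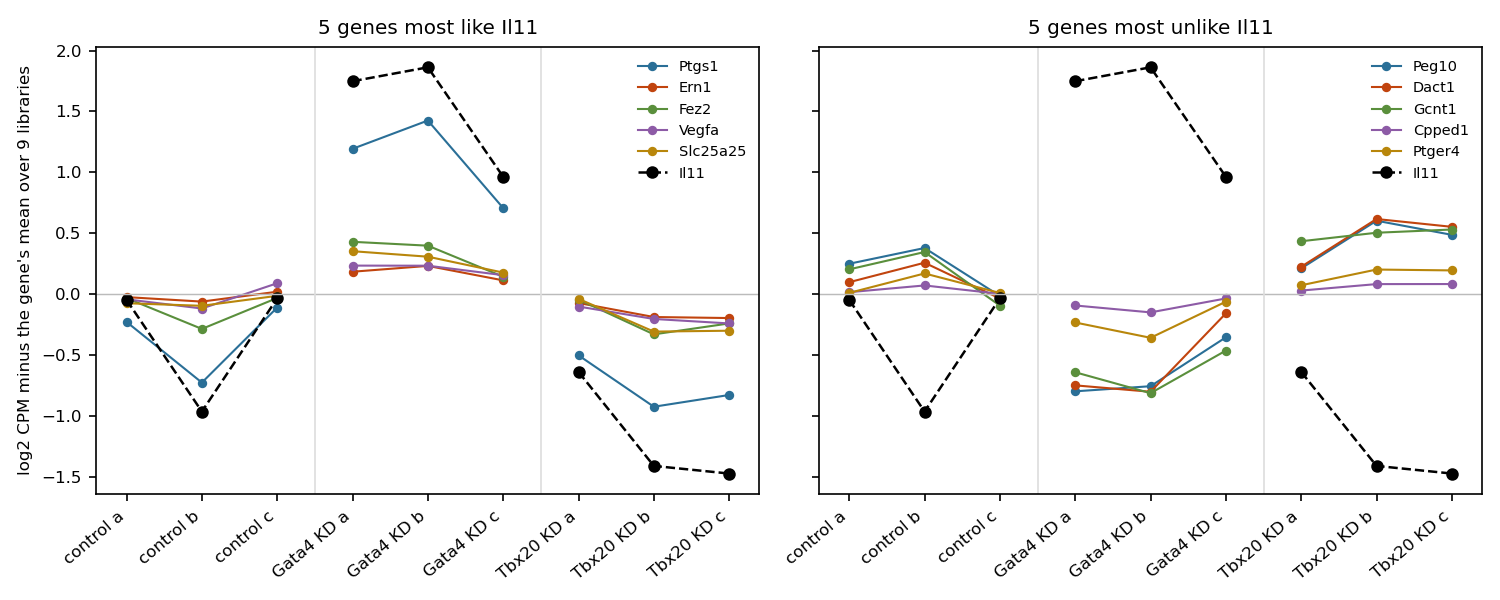
Log2 CPM of each gene minus its mean over the 9 libraries (vertical axis) for Il11 and the 5 genes most like it (left) and most unlike it (right), with libraries on the horizontal axis and lines joining libraries of 1 group. Il11 spans the widest range, and Ptgs1 follows it with the next widest among the genes alike.

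Within the family, Clcf1 varied most like Il11 (r = 0.81 over the 9 libraries and 0.89 within groups). Osmr (-0.94), Lifr (-0.88), Il6st (-0.84) and Socs3 (-0.83) ran opposite to Il11 within groups, although over the 9 libraries r was 0.03 for Osmr and 0.02 for Socs3. Il6 did not follow Il11 from library to library, with r = 0.63 over all 9 and -0.37 within groups. The libraries with the least Il11 in control and in Gata4 KD, control b and Gata4 KD c, were at -34.6 and -16.9 on the principal component given above. In Tbx20 KD, Il11 was lowest in c (1.71 CPM), at -2.56 on that component. Tbx20 KD b (1.79 CPM) was at -12.0 and Tbx20 KD a (3.05 CPM) at 14.5. The part of this component in these relations was not tested.

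Some genes from the lists of other cell types also moved with Gata4 KD. The cardiomyocyte list (8 genes, 2 above 1 CPM in any library, Nppa at 0 throughout) summed to 9.03 to 10.0 CPM in Gata4 KD, 24.7 to 31.6 in control and 22.1 to 27.4 in Tbx20 KD. Nearly all of that sum was Tnnt2, a troponin gene, which fell by 1.64 on the log2 scale between Gata4 KD and control (SE 0.13, adjusted p = 0.00272). The mesothelial and epicardial list (7 genes, 5 above 1 CPM) summed to 9.44 to 17.2 CPM in Gata4 KD, 25.5 to 49.3 in control and 27.2 to 44.1 in Tbx20 KD, and its leading gene in control, Lrrn4, fell by 3.38 (SE 0.27, adjusted p = 0.00272). It was the 1 gene called of the 5 tested, of which 3 were lower in Gata4 KD than in control and 2 higher (Krt19 by 0.35 and Wt1 by 0.13 on the log2 scale). Of the cardiomyocyte list, Myh6, Actn2, Ttn, Tnni3 and Myl2 stayed at or below 0.272 CPM in every library. The paper places low levels of myocardial genes in cardiac fibroblasts themselves, and reports several of these, and epicardial markers, as changed by knockdown. Whether Tnnt2 and Lrrn4 came from fibroblasts or other cells was not tested. The leukocyte sums were 21.8 to 38.6 CPM in Gata4 KD, 37.5 to 43.9 in control and 35.3 to 52.4 in Tbx20 KD, and overlapped. Of the 6 leukocyte genes tested 0 were called in any comparison. The endothelial sums (5 of 6 genes above 1 CPM) were 37.1 to 54.8 CPM in Gata4 KD, 35.1 to 55.5 in control and 40.8 to 52.4 in Tbx20 KD, and overlapped. Of the 6 endothelial genes 3 were higher and 3 lower in Gata4 KD than in Tbx20 KD, and 1 was called, Kdr, a receptor for vascular endothelial growth factor, at a log2 difference of 0.90 (SE 0.13, adjusted p = 0.0258). That call was lost without Gata4 KD a, Gata4 KD b, Tbx20 KD a, Tbx20 KD b or Tbx20 KD c (0.0528 to 0.142). The mural cell sums (20.5 to 40.7 CPM in Gata4 KD against 27.2 to 36.3 in control, 4 of 6 genes above 1 CPM) also overlapped. The part of these markers in the levels of Il11 and Il6 was not tested.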

How the data were processed

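RNA was sequenced as 75-base single-end reads from poly(A) libraries of 9 cultures. After quality trimming, the authors ran RSEM with Bowtie2 against GRCm38 according to the study's methods (the labels name mm9). RSEM divides reads shared by several genes among them. The deposited table gives expected counts for each gene as whole numbers without normalisation, and every column was used. Symbols (37607 of 38924 identifiers) and exon lengths came from GENCODE M21 (GRCm38); the annotation behind the counts was not given in the sources used here.

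Each comparison was fitted on its 6 libraries in R 4.3.3 with edgeR 4.0.16 (filterByExpr, TMM, glmQLFit, glmQLFTest, no covariate), with Benjamini-Hochberg adjustment over all genes tested and a threshold of 0.05. Each SE was derived from the fold change and its F statistic. The fits were tested on simulated data. Alternatives were DESeq2 1.42.0, scaling by library size, no filter, a shared fit, the exact test, a replicate block and leaving out each library, and, chosen after seeing the data, a library covariate. Likeness to Il11 used log2 CPM with a prior count of 2.

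The members and lists were chosen with earlier results of these data known. The text names all members, both targets, the called genes of each pathway list or otherwise its 2 most abundant genes, and the 5 genes most and least like Il11. Some genes this rule names are not reported here. Osm, Tnnt2, Lrrn4, Krt19, Wt1, Lum, Lyz2, Ptprc, Kdr, Jak2, Etv5, Phlda1, Dusp6, Spry2 and the marker sums were added after their values were seen.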

Additional observations from a re-analysis of the deposited data

Results flagged for a closer look

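Il11 moved in opposite directions in the knockdowns relative to the control mean, up in 3 of 3 Gata4 KD libraries and down in 3 of 3 Tbx20 KD libraries. Control b (2.44 CPM) also lay below that mean and below Tbx20 KD a (3.05 CPM), so control and Tbx20 KD overlapped. The log2 difference between the knockdowns was 2.68. This difference was not tested, because Il11 was chosen with its values known. Il6 differed between the knockdowns by 0.42 on the log2 scale in the test of that difference itself (edgeR quasi-likelihood, adjusted p = 0.0405), with 3 of 3 Gata4 KD libraries above every Tbx20 KD library. Its adjusted p ranged from 3.55e-05 to 0.180 over 13 alternatives, of which 6 called it.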

How the results depend on the processing

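The log2 fold change of Il11 kept its sign and stayed within 1 SD of the replicates under all alternatives run. Without one library it ranged from 1.62 to 2.12 (Gata4 KD against control), from -1.14 to -0.66 (Tbx20 KD against control) and from 2.51 to 3.02 (Gata4 KD against Tbx20 KD). The number of other members called between Gata4 KD and control was 1 (Il6) with DESeq2, the exact test and the library covariate, and 0 to 1 without one library. Between the knockdowns it was 0 by library size alone, with all 9 libraries in one fit and with the replicate block, 2 (Il6 and Clcf1) with the library covariate, and 0 to 1 without one library. The place in the control order was kept by 8 of 10 members with the longest transcript, and by 8 to 10 without one control library. Some log2 fold changes of other members, none of them called, changed sign when 1 library was left out. In Gata4 KD against control the ranges without one library were -0.20 to 0.28 for Ctf1 (-0.0031 with the replicate block), -0.31 to 0.032 for Il11ra1 and -0.055 to 0.12 for Il6st. In Tbx20 KD against control they were -0.33 to 0.041 for Clcf1 and -0.018 to 0.30 for Lifr. Between the knockdowns they were -0.051 to 0.25 for Osmr and -0.048 to 0.20 for Socs3. The cause was not tested.

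Same-letter libraries had correlations of their deviations from -0.17 to 0.25, and different-letter libraries from -0.39 to 0.35. These values cannot show whether libraries with the same letter share mice or a batch, and the labels do not say. Between the knockdowns the replicate block lost the calls of Il6 (adjusted p = 0.0720), Fosl2 (0.0547), Tgfbr1 (0.0799) and Kdr (0.0574). It left 5 genes called between Gata4 KD and control against 55, 2 against 1 between Tbx20 KD and control, and 101 against 208 between the knockdowns. The genes called were 273, 10 and 761 with DESeq2, 250, 8 and 729 with the exact test, 121, 2 and 324 without a filter, and 456, 5 and 644 with the library covariate, in that order of comparisons, and 148 between Gata4 KD and control in one fit. Without one library they ranged from 6 to 189, 1 to 5 and 22 to 801. Scaling by library size alone turned the split between the knockdowns from 118 higher and 90 lower to 90 higher and 112 lower.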
